A study of Mus musculus with 7 samples.

Results

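The 40 genes described here are genes of germ cells and of meiosis, taken by symbol from a list out of the 24328 gene symbols in the files. They were read in poly(A) RNA-seq libraries of the right kidney of C57BL/6J mice killed at 4 weeks of age. LBR-null mice were homozygous for the ic-J loss-of-function allele of Lbr (Lbric-J/ic-J), which encodes the lamin B receptor, which sits in the inner membrane of the nucleus and holds silent chromatin at its edge, and the wild-type (WT) mouse was an Lbr+/+ littermate. Mouse 4001 and mouse 4007 gave 2 libraries each and mouse 4002 gave 1 (3 LBR-null mice, 5 libraries), and the single WT mouse, 4009, gave 2 libraries. The mutation is carried from conception and in all cells, and the tissue is whole kidney without sorting, so fewer cells of a type and less RNA per cell cannot be told apart.

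Germ cells use a set of genes that somatic cells keep silent. Some guard the genome against transposons with PIWI proteins and their small RNAs, some build the synaptonemal complex and the cohesin of meiotic chromosomes, and others pack the sperm nucleus or form the coat of the egg. In somatic cells many of these promoters are held shut by DNA methylation and by the E2F6, MGA and MAX repressor complex, of which MGA and MAX bind the E-box CACGTG. The question asked of the data was whether the kidneys of LBR-null mice held more or less RNA of these genes than the kidney of the WT littermate.

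The germline genes made up a very small part of the kidney RNA. Each library held between 20694016 and 26333284 reads on genes, of which 961 to 1884 lay on the 40 genes, and 29 to 34 of them had a read in a given library. Over all libraries 38 of the 40 had at least 1 read, and 80.1% of the 10475 reads lay on Sycp3, Rec8, Tdrd5 and Brdt. The remaining 36 genes together summed to between 295 and 357 normalized counts in the LBR-null libraries and to 131 and 128 in the WT libraries, so that no LBR-null library reached down to a WT library. A normalized count is a read count that the authors had divided by a size factor for the library, and 1 read was worth between 0.788 and 1.15 normalized counts.

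The upstream sequence of some of these genes is shown because a feature that the rule did not use, the E-box CACGTG, stood there. In the 250 bases before the first annotated start of a coding transcript (mm9, read on the gene's own strand; any transcript where none is coding) CACGTG was found in 13 of the 40 genes (32.5%) and in 6.77% of 19006 other genes with a coding annotation. The E2F6-type motif GGCGGGA, searched on both strands, was found in 4 of 40 (10%) and in 13.1% of the others, and both motifs in 3 (7.5%) and 1.15%. In the 1 kb around the same start, 16 of the 40 (40%) were CpG-rich (GC of at least 50% and an observed to expected CpG ratio above 0.6), against 47.4% of the other genes. For Spo11 and Asz1, where other transcripts start further upstream, this window lies within the annotated gene, and neither window holds the E-box. CACGTG reads the same on both strands, and a copy of one motif can share at most 1 end base with a copy of the other. The windows of 4 genes follow in 5′ to 3′ order, with CACGTG in capitals. The first pair belongs to the genes with the highest limma log2 fold change (on the log2(value + 1) scale) in LBR-null kidney among those tested, each with 2 copies, and the second pair to genes with 1 copy each. By the plain ratio of means Mov10l1 (11.1), Tnp1 (6.57) and Smc1b (6.49) lay above Tdrd9 (5.75). The windows are chr5:129241871-129242120 (plus strand), chr12:113209520-113209769 (plus strand), chr5:107759928-107760177 (plus strand) and chr3:102740024-102740273 (minus strand).
Piwil1: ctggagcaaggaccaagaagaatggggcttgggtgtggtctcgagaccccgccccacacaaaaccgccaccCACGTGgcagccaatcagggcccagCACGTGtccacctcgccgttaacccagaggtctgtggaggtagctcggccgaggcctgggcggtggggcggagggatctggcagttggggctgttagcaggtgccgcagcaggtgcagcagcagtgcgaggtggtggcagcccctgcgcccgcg
Tdrd9: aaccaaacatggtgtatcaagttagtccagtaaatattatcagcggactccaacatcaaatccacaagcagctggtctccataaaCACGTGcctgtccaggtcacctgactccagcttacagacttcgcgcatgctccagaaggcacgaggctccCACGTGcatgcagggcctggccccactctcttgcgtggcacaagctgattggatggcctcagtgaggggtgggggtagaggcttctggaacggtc
Brdt: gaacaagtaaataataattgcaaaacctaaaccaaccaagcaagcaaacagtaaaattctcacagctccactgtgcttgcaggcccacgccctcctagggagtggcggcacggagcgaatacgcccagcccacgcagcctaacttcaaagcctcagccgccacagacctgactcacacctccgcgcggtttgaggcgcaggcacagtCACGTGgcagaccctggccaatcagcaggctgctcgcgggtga
Sycp1: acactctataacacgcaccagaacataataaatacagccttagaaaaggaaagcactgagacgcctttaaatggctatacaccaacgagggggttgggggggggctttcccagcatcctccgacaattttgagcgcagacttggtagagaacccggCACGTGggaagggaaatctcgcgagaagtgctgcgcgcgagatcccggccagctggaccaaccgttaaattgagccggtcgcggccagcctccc
Of the 13 genes, Piwil1, Tdrd9, Sycp3 and Hormad1 had 2 copies and 9 had 1. The 4 windows shown were chosen with the fold changes known, all from genes with an unadjusted p under 0.05. Sycp3, also with 2 copies, had a log2 fold change of -0.06, and Ddx4, Tdrd1, Mov10l1 and Tex15, with 1 copy each, were tested and had an unadjusted p of 0.166 or more. A match is a description of the letters and not of a bound site.

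The mutated gene itself, Lbr, was not lower in the kidneys labelled LBR-null. Its normalized counts were 330 and 314 in mouse 4001, 340 in mouse 4002, 495 and 448 in mouse 4007 and 416 and 381 in the WT mouse (log2 fold change -0.10 ± 0.32 SE, adjusted p = 0.902 by limma), so its RNA level does not check the genotype labels. The libraries also differed in sex-linked RNA. Xist, the RNA of the inactive X chromosome, stood at 5352 and 6218 in mouse 4001, 65.3 in mouse 4002, 10160 and 9718 in mouse 4007 and 39.4 and 31.7 in WT. The Y-linked gene Ddx3y stood at 149 and 133, 1516, 49.4 and 39.2, and 1299 and 1269 in the same order. Mouse 4002 is thus the LBR-null mouse that resembled the WT mouse in both, and its values are given beside some of the counts below. Mouse 4001 had high Xist together with Ddx3y above that of mouse 4007 and far below WT, and the labels give no sex. Mouse 4001 and mouse 4007 differed from WT both in genotype and in sex-linked RNA. In comparisons that include them, genotype and sex cannot be told apart.

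The germline genes lay above WT more often than below it. By the ratio of the mean of the 3 LBR-null mice to the WT value, 24 of the 38 germline genes above 0 (63.2%) were at least 2-fold higher in LBR-null kidney, against 22.7% of all 21468 genes above 0. The 24 include Mael and Tex101 with 1 read each and Stra8 with 4, all over a WT value of 0. With 5 added to each value, which damps the ratios of low genes, 11 of 38 (28.9%) and 8.89% of all genes were. At least 2-fold lower were 2, Prm2 and Pgk2, each resting on 1 read in WT, against 8.8% of all genes. Among genes with at least 10 reads over the 7 libraries, 21 of 32 germline genes (65.6%) and 18.5% of all genes were at least 2-fold higher. Genes of low level were shifted more often in general. Among those with a WT value of 5 to 50 normalized counts, 3 of 10 germline genes (30%; Tdrd6, Piwil2 and Dmc1) were at least 2-fold higher, close to the 26.2% of all genes, and 0 were at least 2-fold lower, against 12.1%. Among those with a mean of 5 to 50 over the 4 mice, 14 of 19 germline genes (73.7%) and 41.7% of all genes were higher and 0 and 10.7% lower, but 11 of the 19 had under 5 in WT and entered only through the LBR-null mice, and all 11 are among the 14, so that this count is only a description. The count at 10 reads leans the same way, since 5 of the 7 libraries are LBR-null. With mouse 4002 alone against WT, 17 of 35 (48.6%) and 16.9% of all genes were at least 2-fold higher, and 4 (11.4%) and 11.3% at least 2-fold lower. The lower count also moved from 2 to 4 without mouse 4001 (10.8%, beside 9.07% of all genes) and to 5 without mouse 4002 (13.2%, beside 9.98%). It was 4 without WT library 1 (10.5%, beside 8.54%) and 0 without WT library 2 (beside 8.61%).

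**Figure D1:**
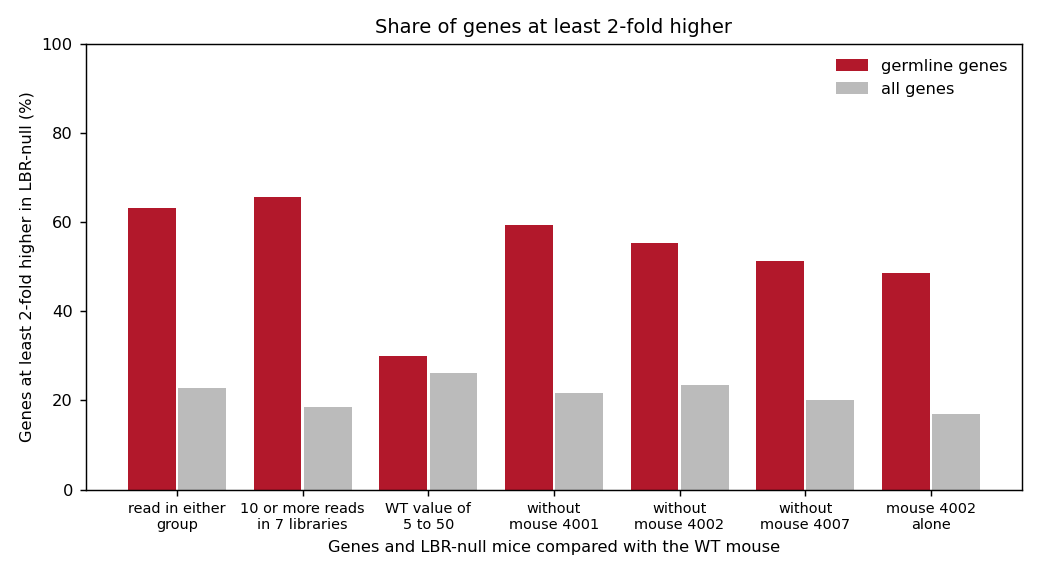
Share of genes at least 2-fold higher in LBR-null than in WT kidney (y axis, percent), for the germline genes (red) and for all genes under the same condition (grey), by which genes or which LBR-null mice entered (x axis). The germline share is 63.2% against 22.7% for genes read in either group and 48.6% against 16.9% with mouse 4002 alone, and lies near the share of all genes, at 30% against 26.2%, for genes with a WT value of 5 to 50.

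By libraries, all 5 LBR-null values lay above both WT values for 16 of 38 germline genes, against 22.2% of all genes with a read. They lay below both WT values for 1 gene, Rec8, against 21.4% of all genes. The 16 include Acrv1 and Asz1, whose lowest LBR-null library and highest WT library hold 1 read each. The same libraries hold 2 reads each for Tnp1, 3 for Dppa3, 9 for Piwil4 and 12 for Dmc1. For Tex15 they hold 7 reads in LBR-null and 8 in WT. For all of these genes the gap between these libraries comes from the size factors alone.

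limma was run on log2(normalized count + 1) of the mouse means for the 17283 genes with a mean of at least 5, assuming that the WT mouse varies as the LBR-null mice do. An exact permutation of 3 mice against 1 cannot give a one-sided p below 0.25. Of the 40 genes 23 entered the test, and 11 of these passed the filter only through the LBR-null mice, with under 5 normalized counts in WT, so that they could hardly come out lower. At an adjusted p under 0.05 and at least 2-fold, 0 of the 23 were called, as for all genes (0%), with the lowest adjusted p at 0.0843 for Piwil1. At an unadjusted p under 0.05, 9 were higher (10.7% of all tested genes) and 0 lower (8.05% of all), the 9 being Piwil1, Tdrd9, Smc1b, Sycp1, Zp1, Zp3, Dppa3, Tnp1 and Brdt. Of the 9 all but Brdt had under 5 normalized counts in WT and passed the filter only through the LBR-null mice, so the count is only a description. Of all tested genes with under 5 in WT, 58.8% of 1293 were higher at this p, beside 8 of the 11 germline genes (72.7%). Of those with 5 or more in WT, 6.83% of 15990 were, beside 1 of the 12 germline genes (8.33%). Without mouse 4007 the 9 became 4 (Piwil1, Tdrd9, Smc1b and Zp1), beside 6.38% of all tested genes in that fit. As a description under the same limit, the median log2 fold change of the 23 was 0.94, beside 0.01 for all tested genes. It was 0.70 for the 12 with at least 5 in WT, beside -0.04 for all such genes, and 1.78 for the 11 under 5, beside 1.85 for all such genes. For the 23 against the WT mouse it was 0.97 for mouse 4001, 1.32 for mouse 4002 and 1.48 for mouse 4007. On read counts recovered from the files, edgeR called 0 of the 23 (0.00579% of all genes higher and 0.156% lower) and DESeq2 called 2 as higher (3.08% of all genes), Piwil1 at an adjusted p of 0.00945 and Tdrd9 at 0.0424. limma called the same pair without mouse 4001 (adjusted p = 0.0282 and 0.0456; 2.52% of all genes called higher) and Piwil1 without mouse 4002 (adjusted p = 0.0247; 2.29%).

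**Figure D2:**
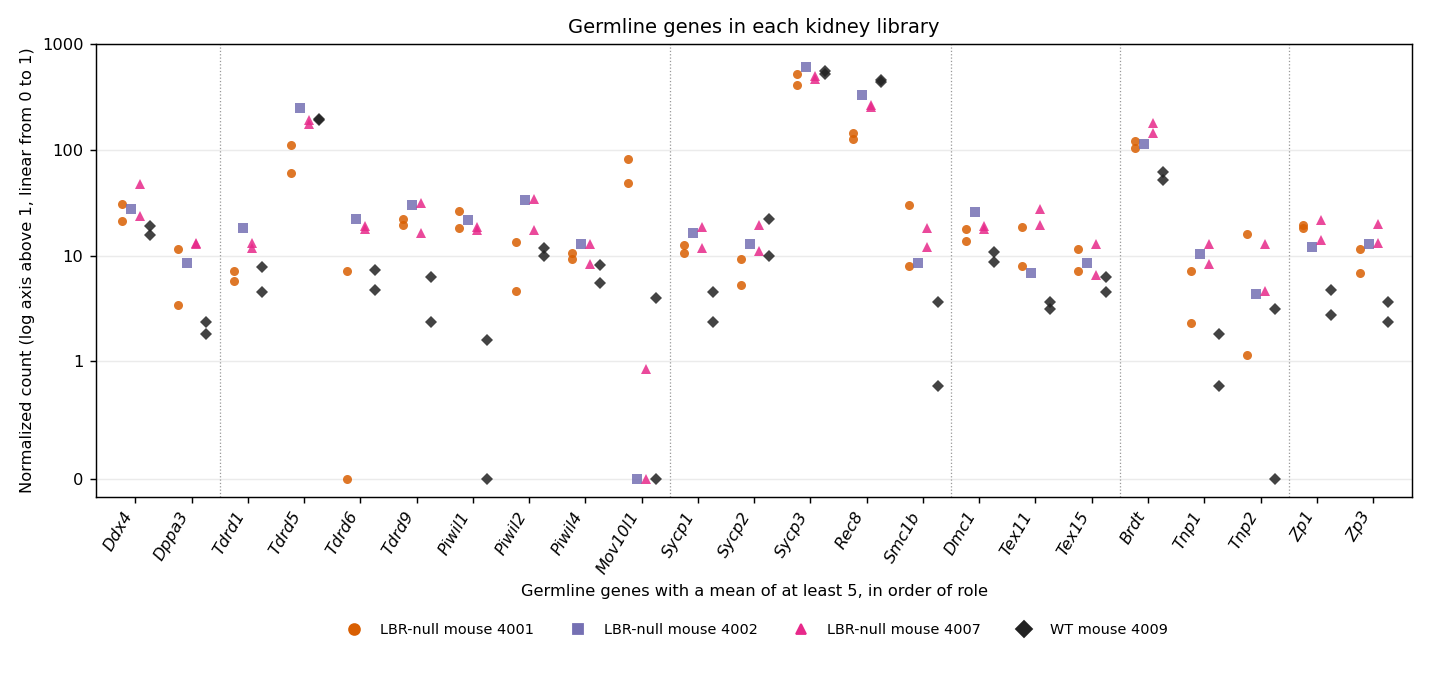
Normalized counts (y axis, log scale above 1 and linear from 0 to 1) of the 23 germline genes with a mean of at least 5 in each of the 7 libraries (x axis, genes in order of role, dotted lines between roles). Points are libraries, coloured by mouse. The WT libraries lie lowest for Piwil1, Tdrd9, Smc1b, Sycp1, Zp1 and Zp3, highest for Rec8, and Mov10l1 is high in mouse 4001 only among these libraries.

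In the piRNA pathway, 7 of 10 genes were at least 2-fold higher and 0 lower, beside 22.7% of all genes and 41.7% of those with a mean of 5 to 50. Mael and Asz1, at means of 0.111 and 1.82 over the 4 mice, lie below that range and Tdrd5, at 178, above it. The 7 include Mael on 1 read and Mov10l1, which was high in mouse 4001 alone. With mouse 4002 alone 6 of the 10 were at least 2-fold higher, beside 16.9% of all genes. Piwil1 encodes a PIWI protein that loads piRNAs in spermatocytes and round spermatids. It had 18.4 and 26.6 normalized counts in mouse 4001, 21.5 in mouse 4002, 18.6 and 17.3 in mouse 4007, and 1.58 and 0 in the WT mouse. Each LBR-null library was far above both WT libraries, and the LBR-null values spread little, with a mean of 20.7 ± 2.38 (SD, n = 3 mice). The WT value rests on 2 reads against 110, a read ratio of 24.5 with a counting interval of 6.62 to 205 (95%, exact, counting error only), and the limma log2 fold change was 3.59 ± 0.53 SE (adjusted p = 0.0843). Tdrd9, an RNA helicase of piRNA production, had 19.5 and 22.2 in mouse 4001, 30.1 in mouse 4002, 31.7 and 16.4 in mouse 4007, and 2.36 and 6.33 in WT. Its LBR-null mean was 24.99 ± 4.69 and its log2 fold change 2.27 ± 0.51 SE (adjusted p = 0.114 by limma), with no overlap between the groups.

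The other PIWI and Tudor genes differed less from WT, or not alike in all mice. Piwil2, the PIWI protein of early germ cells, had 4.59 and 13.3 in mouse 4001, 33.5 in mouse 4002, 34.5 and 17.3 in mouse 4007, and 11.8 and 9.95 in WT. Mouse 4001 lay at or around WT and the other 2 above it, and the log2 fold change was 0.82 ± 0.78 SE. Piwil4, which directs DNA methylation to transposons, had 9.19, 10.7, 12.9, 8.38 and 12.8 in the LBR-null libraries and 5.51 and 8.14 in WT, a narrow gap (0.62 ± 0.54 SE). Tdrd6 and Tdrd1, scaffold proteins of germ granules, shared the pattern of Piwil2. Tdrd6 had 0 and 7.10 in mouse 4001, 22.4, 17.7 and 19.14 in the other LBR-null libraries and 4.73 and 7.24 in WT (0.87 ± 0.99 SE). Tdrd1 had 5.74 and 7.10 in mouse 4001, 18.1, 13.0 and 11.9 in the others and 7.88 and 4.52 in WT (0.78 ± 0.69 SE). For these 3 genes the groups overlapped through mouse 4001.

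Tdrd5 and Mov10l1 set mouse 4001 apart in opposite directions. Tdrd5, needed for germ granule assembly and one of the 4 abundant genes, had 60.9 and 111 in mouse 4001, 247 in mouse 4002, 177 and 193 in mouse 4007 and 197 and 193 in WT. Only mouse 4001 lay well below WT among these mice, and the log2 fold change of -0.30 ± 0.59 SE became 0.13 without it. Mov10l1, the helicase that feeds precursor RNAs to PIWI proteins, had 81.5 and 48.8 in mouse 4001, 0 in mouse 4002, 0.931 and 0 in mouse 4007 and 3.94 and 0 in WT. Its signal came from both libraries of 1 mouse, and its log2 fold change of 0.63 ± 2.26 SE became -1.29 without that mouse. Asz1, a germ granule protein at mitochondria, had 2.30 and 1.78 in mouse 4001, 2.58 in mouse 4002, 0.931 and 2.73 in mouse 4007 and 0.788 and 0.905 in WT, or 11 reads against 2, a read ratio of 2.45 (0.535 to 22.8), and Mael had 1 read in all.

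**Figure D3:**
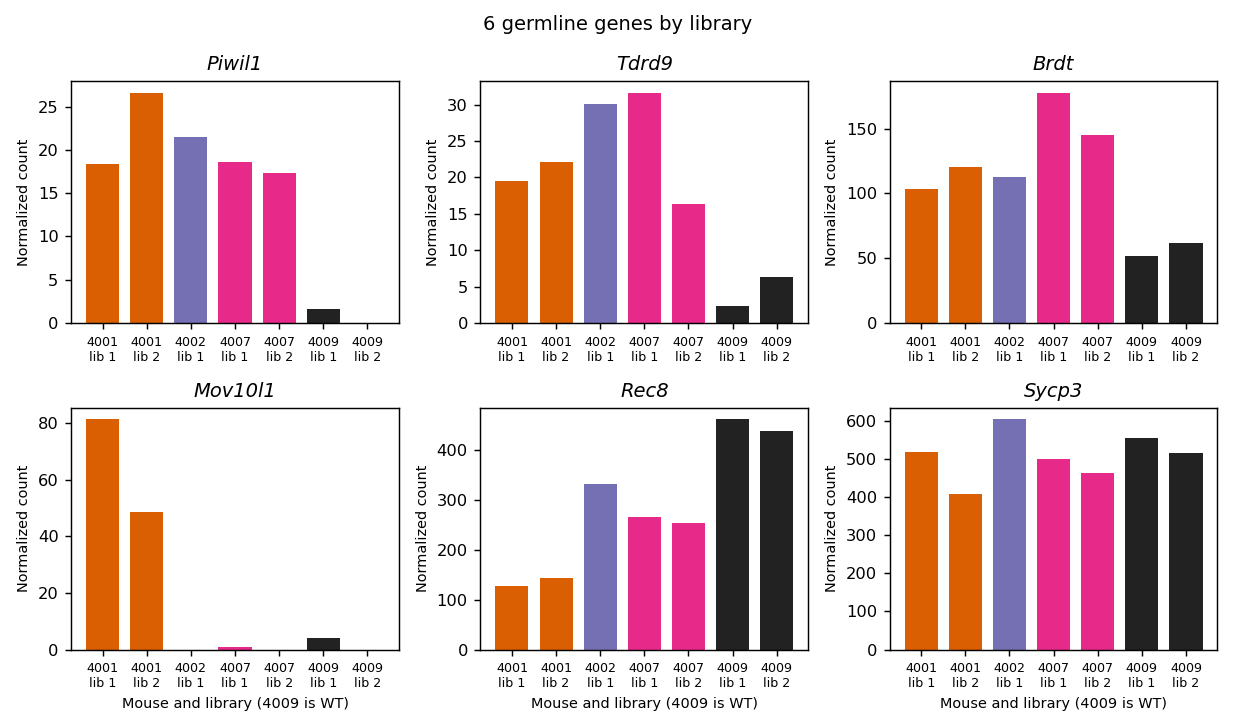
Normalized counts (y axis, linear, from 0) of 6 germline genes in each library (x axis, mouse and library number; black bars are the WT mouse 4009). Piwil1, Tdrd9 and Brdt are higher in all 5 LBR-null libraries than in both WT libraries, Rec8 is lower in all 5, Sycp3 overlaps, and Mov10l1 stands at 81.5 and 48.8 in mouse 4001 and at 3.94 or less elsewhere.

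Genes of the meiotic chromosome axis, the synaptonemal complex and meiotic cohesin lay on both sides of WT, and none of those tested was called higher or lower. Sycp1 builds the transverse filaments of the synaptonemal complex. It had 12.6 and 10.7 in mouse 4001, 16.3 in mouse 4002, 18.6 and 11.9 in mouse 4007, and 2.36 and 4.52 in WT. The groups did not overlap, with an LBR-null mean of 14.4 ± 2.46 and a log2 fold change of 1.78 ± 0.55 SE (adjusted p = 0.160 by limma). Smc1b, the meiotic cohesin ring subunit, had 8.04 and 30.2 in mouse 4001, 8.60 in mouse 4002, 12.1 and 18.2 in mouse 4007, and 0.788 and 3.62 in WT. It was also higher throughout, by 2.19 ± 0.64 SE (adjusted p = 0.149), although the libraries of mouse 4001 differed from each other as much as the mice did. Hormad1, an axis protein, had 29 reads in LBR-null libraries and 6 in WT, between 2.66 and 9.19 normalized counts against 1.58 and 3.62, which overlap.

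Rec8 was the one germline gene with every LBR-null library below WT. Rec8, the kleisin subunit of meiotic cohesin, had 126 and 144 in mouse 4001, 331 in mouse 4002, 265 and 253 in mouse 4007, and 462 and 439 in WT. Its mean of 242 ± 99.1 stood against 450, a log2 fold change of -0.99 ± 0.51 SE with an adjusted p of 0.356 by limma, so the difference was not past the spread between mice. The unadjusted p was 0.0970, and 0.0418 without mouse 4001 and 0.0239 without mouse 4002. Sycp2, an axis protein, had 9.19 and 5.32 in mouse 4001, 12.9 in mouse 4002, 19.6 and 10.9 in mouse 4007 and 22.0 and 9.95 in WT, and its log2 fold change of -0.47 ± 0.61 SE became 0.17 without WT library 1.

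Sycp3, which forms the lateral elements, was the most abundant germline gene and showed no shift. It had 518 and 409 in mouse 4001, 604 in mouse 4002, 501 and 463 in mouse 4007, and 554 and 515 in WT (log2 fold change -0.06, 95% interval -0.72 to 0.60). In the annotation of mm9 (chr10:87922314-87935981), 660 of its 1264 exon bases overlap exons of Chpt1, a gene of phospholipid synthesis on the other strand that had between 6111 and 12240 normalized counts in these libraries. Whether the counting used strand is not given in the sources used here, so reads of the 2 genes cannot be told apart. Per kilobase of exon in WT, Sycp3 stood at 423 normalized counts, Rec8 at 164, Tdrd5 at 28.1 and Brdt at 11.1, and no other germline gene exceeded 6.10. In LBR-null kidney the level per kilobase was 25.2 ± 5.54 (SD, n = 3 mice) for Brdt, 24.9 ± 11.7 for Tdrd5, 20.4 ± 7.94 for Tnp1 and 13.1 ± 4.56 for Tnp2, the last pair being short genes of few reads.

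Among recombination genes, Dmc1, Tex11 and Tex15 had every LBR-null library above both WT libraries, as had 22.2% of all genes with a read. None of them was called by limma (adjusted p = 0.398, 0.296 and 0.561). The lowest LBR-null library and the highest WT library hold 12 reads each for Dmc1. For Tex15 they hold 7 reads in LBR-null and 8 in WT. The gap between these libraries thus comes from the size factors alone for Dmc1 and Tex15. Dmc1, the meiotic strand exchange recombinase, had 13.8 and 17.8 in mouse 4001, 25.8 in mouse 4002, 17.7 and 19.14 in mouse 4007, and 8.66 and 10.9 in WT (0.94 ± 0.53 SE on the log2 scale). Tex11, an X-linked gene of crossover formation, had 8.04 and 18.6, 6.88, 19.6 and 27.3, and 3.15 and 3.62 in the same order (1.68 ± 0.75 SE, adjusted p = 0.296 by limma). The lowest LBR-null mouse was 4002, at 6.88 against 3.38 in WT, which is also the LBR-null mouse with low Xist. Tex15, needed for recombination and transposon silencing, had 11.5 and 7.10, 8.60, 6.52 and 12.8, and 6.30 and 4.52, a gap within the counting error of its 62 reads (read ratio 1.68, interval 0.897 to 3.37). Spo11, the enzyme that makes meiotic breaks, had between 0 and 6.88 in LBR-null libraries and 7.09 and 6.33 in WT, with 22 reads against 16, a read ratio of 0.613 (0.307 to 1.248).

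Of the genes of spermatid chromatin, Brdt had the most reads. Brdt, a bromodomain protein that reads acetylated histones during sperm formation, had 103 and 121 in mouse 4001, 113 in mouse 4002, 178 and 145 in mouse 4007, and 52.0 and 61.5 in WT. All LBR-null libraries lay above WT, with 707 reads against 134 and a mean of 129 ± 28.3. Its log2 fold change was 1.15 ± 0.39 SE (adjusted p = 0.187 by limma, 0.104 by DESeq2). The transition proteins Tnp1 and Tnp2, which replace histones before the protamines, had few reads in both groups. Tnp1 had 2.30 and 7.10, 10.3, 8.38 and 12.8, and 0.788 and 1.81, with 45 reads against 3 (read ratio 6.68, interval 2.15 to 33.6). Tnp2 had 1.15 and 16.0, 4.30, 4.66 and 12.8, and 3.15 and 0, with overlap between the groups. The protamine gene Prm1 had no read in any library, and Prm2 had 1.

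Genes of sperm structure, surface and energy supply were close to the limit of detection. Akap4, of the sperm tail, had no read, a level under 3 reads per library, or 2.36 to 3.45 normalized counts. Odf1 had 2 reads in all and Tex101 had 1. Acrv1, an acrosome protein, had between 0.887 and 4.66 normalized counts in LBR-null libraries and 0.788 and 0 in WT, with 16 reads against 1 (read ratio 7.13, interval 1.11 to 299). The gap between the groups comes from the size factors alone, since both libraries of mouse 4001 and WT library 1 hold 1 read each. Ldhc, the lactate dehydrogenase of sperm, had between 1.15 and 6.88 against 2.36 and 0, with 23 reads against 3 (read ratio 3.42, interval 1.03 to 17.8). The adenine nucleotide carrier Slc25a31 had between 0.931 and 4.59 against 0.788 and 2.71, with 13 reads against 4 (1.45, interval 0.447 to 6.10), and Pgk2 had 1 read, in WT.

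All 4 oocyte genes were at least 2-fold higher, at low levels, beside 22.7% of all genes. Of genes with a mean of 5 to 50, 41.7% were, a range that Zp1 and Zp3 entered only through the LBR-null mice. Zp2 and Oosp1, at means of 2.13 and 3.41 over the 4 mice, lie below it. With mouse 4002 alone 2 of the 4 were, beside 16.9% of all genes (Zp1 and Zp3, but not Zp2 at a ratio of 1.09 and Oosp1 at 1.39). Zp1, a glycoprotein of the zona pellucida around the egg, had 18.4 and 19.5 in mouse 4001, 12.0 in mouse 4002, 14.0 and 21.9 in mouse 4007, and 4.73 and 2.71 in WT (log2 fold change 1.85 ± 0.56 SE, adjusted p = 0.157 by limma). Zp3, the zona protein that sperm meet, had 6.89 and 11.5, 12.9, 13.0 and 20.1, and 2.36 and 3.62 (1.76 ± 0.59 SE, adjusted p = 0.186). Neither gene overlapped between groups. Zp2 had between 0 and 8.38 against 1.58 and 0, with 16 reads against 2 (read ratio 3.56, interval 0.838 to 32.0), and Oosp1, a secreted oocyte protein, between 0.887 and 9.12 against 1.58 and 0.905, with 24 reads against 3 (3.56, interval 1.08 to 18.5).

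Among the genes of germ cell identity, Dppa3, Ddx4 and Stra8 had LBR-null means above WT. The mean of Dazl lay below WT, within the counting error of its reads. Dppa3, a maternal factor that protects DNA methylation in the egg, had 3.45 and 11.5 in mouse 4001, 8.60 in mouse 4002, 13.0 and 12.8 in mouse 4007, and 2.36 and 1.81 in WT (1.76 ± 0.61 SE, adjusted p = 0.198 by limma). Ddx4, the germ granule helicase also known as Vasa, had 31.0 and 21.3, 27.5, 47.5 and 23.7, and 15.8 and 19.0, a smaller difference without overlap (0.73 ± 0.47 SE). Dazl, an RNA-binding protein that marks germ cells, had between 0.860 and 7.29 in LBR-null libraries and 3.94 and 8.14 in WT, with 18 reads against 14 (read ratio 0.573, interval 0.269 to 1.24). Stra8, which starts meiosis, had 4 reads in LBR-null libraries and 0 in WT, below the 3-read limit of a single library.

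**Figure D4:**
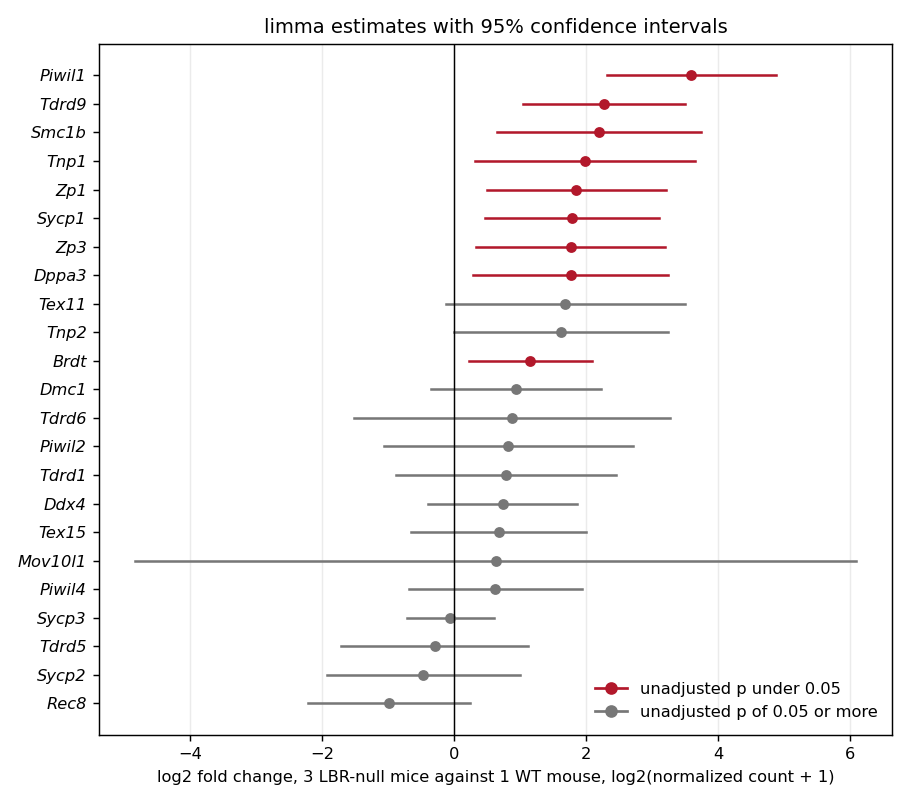
limma log2 fold change (x axis) of the 23 tested germline genes (y axis, in order of the estimate), 3 LBR-null mice against 1 WT mouse, with 95% confidence intervals. The 9 genes in red have an unadjusted p under 0.05 and run from Brdt at 1.15 to Piwil1 at 3.59, and Rec8 is lowest at -0.99.

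A second list of germline genes, not members of the 40, was read alongside. Of its 65 symbols 61 were in the files and 36 were tested, with 0 called by limma, 0 by edgeR and 5 by DESeq2, all higher (3.08% of all genes) and a median log2 fold change of 0.39. At an unadjusted p under 0.05, 7 were higher (10.7% of all tested genes) and 0 lower (8.05%). The 7 were Bmp15, Sohlh1, Spem1, Spata16, Tex14, Mei1 and Ddx25, of which Sohlh1, Spem1 and Spata16 stood at 0, 2.76 and 3.38 in WT and passed the filter only through the LBR-null mice. Bmp15, an X-linked oocyte growth factor, had 148 and 163 in mouse 4001, 147 in mouse 4002, 284 and 235 in mouse 4007, and 14.2 and 25.3 in WT (3.13 on the log2 scale, adjusted p = 0.08 by limma). Sohlh1, a transcription factor of early germ cells, had 18.4 and 12.4, 6.88, 18.6 and 13.7, and 0 in both WT libraries. The recombination genes Trip13, Psmc3ip and Mnd1, named here after their values were seen, lay the other way, lower in all 5 LBR-null libraries, with adjusted p-values of 0.339, 0.388 and 0.680 by limma. Of 24 genes known to keep germline genes silent, 23 were tested, with 0 called by limma or edgeR and 1 by DESeq2 as lower (4.35% of the list, near the 3.33% of all genes) and a median of -0.10, and an unadjusted p under 0.05 was found for 0 higher genes (10.7% of all) and 1 lower gene (8.05% of all). That 1 was Uhrf1, which brings DNA methylation to newly copied DNA, at 75.8, 68.3, 83.4, 63.3 and 59.2 in LBR-null libraries and 199 and 244 in WT (-1.62 on the log2 scale, adjusted p = 0.114 by limma, 0.00486 by DESeq2). E2f6, Mga and Max had log2 fold changes of -0.49, 0.39 and 0.12.

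Markers of other cells differed between the same libraries. Of 10 markers of gonadal somatic cells 5 were at least 2-fold higher and 1 (Amh) lower, beside 22.7% and 8.8% of all genes. At a mean of 5 to 50, where only some of these markers lie, the shares of all genes were 41.7% and 10.7%. The sum of the 10 markers was 465 to 541 in LBR-null and 241 to 252 in WT libraries. Cyp17a1, of steroid synthesis, stood at 107, 109, 71.4, 95.9 and 72.9 in LBR-null libraries and at 3.15 and 1.81 in WT, and Dmrt1 and Foxl2, of Sertoli and granulosa cells, were higher in all 5 LBR-null libraries, while Lhcgr of Leydig cells lay between 0 and 2.36 in all 7. The adrenal markers summed to 37.3 to 62.9 in LBR-null and to 10.2 and 15.4 in WT libraries. Of the 6, 5 were at least 2-fold higher, beside 22.7% of all genes, and 2 with mouse 4002 alone, beside 16.9%. The 5 include the defining enzymes Cyp11b1 and Cyp11b2, on 3 reads and on 1 read. These enzymes stood at 0 in both WT libraries and at most 3.45 and 0.931 in LBR-null libraries. Hsd3b1 (mean 15.4 against 0.452), Cyp21a1 (11.7 against 2.14) and Mc2r (18.4 against 8.18) were higher in all 5 LBR-null libraries. The 7 neutrophil markers in the files summed to 396 to 2600 in LBR-null and to 76.9 and 84.3 in WT libraries, lowest in mouse 4002. Of the 8 kidney markers, all present in each library, 2 were lower at an unadjusted p under 0.05 (8.05% of all tested genes), Lrp2 and Slc34a1 of the proximal tubule, and 0 higher. Slc12a1 of the thick ascending limb was higher in all 5 LBR-null libraries (ratio 1.82), and Umod, Slc12a3, Aqp2 and Atp6v1g3 overlapped between groups. The part of these cell types in the germline values was not tested.

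**Figure D5:**
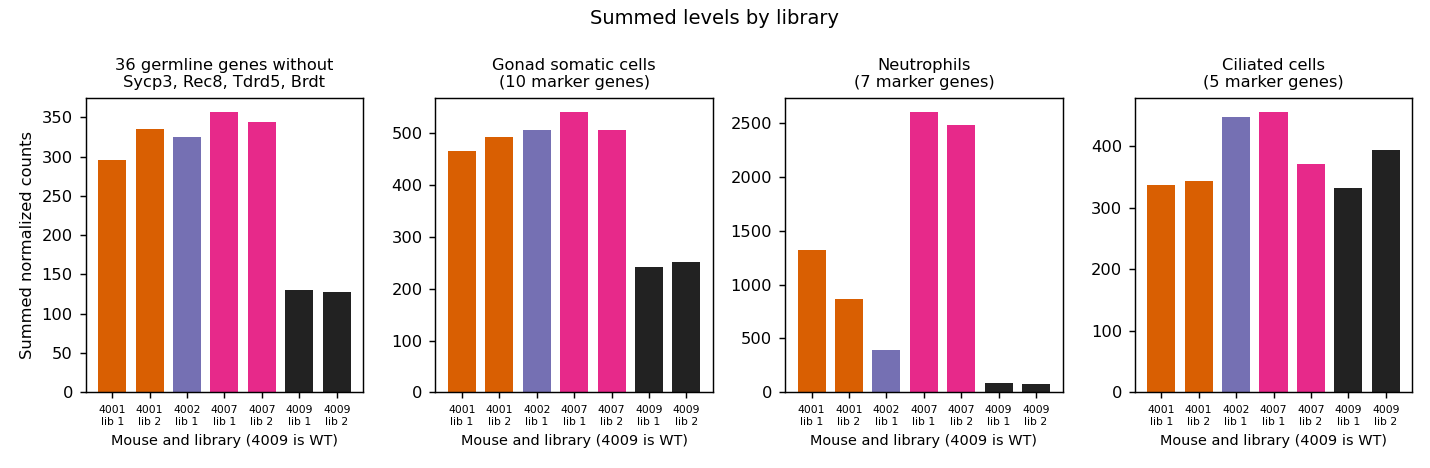
Summed normalized counts (y axis, each panel from 0 on its own scale) per library (x axis; black bars are the WT mouse 4009) of the 36 less abundant germline genes and of markers of gonadal somatic cells, neutrophils and ciliated cells. The first 3 sums are higher in each LBR-null library than in WT (295 to 357 against 131 and 128 for the germline genes), and the ciliated cell sum overlaps.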

How the data were processed

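The authors aligned the reads to mm9 with STAR 2.6.0 and normalized the read counts with DESeq2 1.25.1, per the labels and the study's methods; the deposited files hold 1 normalized count per gene symbol and library, a signal scaled by a size factor per library. The counting program, its annotation and its strand setting are not given in the sources used here. Dividing each library by its smallest value above 0 returned whole reads (100% of values within 0.01 read). Libraries of a mouse were averaged, since libraries of 1 kidney are technical.

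limma 3.58.1 (R 4.3.3, moderated with a trend) was fitted to log2(normalized count + 1) of the 4 mouse means where the mean over mice was at least 5, and p-values were adjusted over all of them by Benjamini-Hochberg. Calls needed an adjusted p under 0.05 and at least 2-fold. edgeR 4.0.16 (quasi-likelihood) and DESeq2 1.42.0 on the recovered reads, summed per mouse, were alternatives, as were other pseudocounts, filters and scalings and leaving out mice or WT libraries. The fits were tested on simulated counts of 3 mice against 1, with 200 of 17283 genes changed 4-fold. At a dispersion of 0.1, DESeq2 called 86 changed and 21 unchanged genes, edgeR 71 and 2, and limma 62 and 3. Of the 43 changed genes with a mean under 30, DESeq2 called 6, edgeR 5 and limma 7. At a dispersion of 0.02 the changed genes called were 159, 187 and 174 in the same order, and the unchanged 0. The fold change is on the log2(value + 1) scale and understates the change of low genes. Read ratios carry exact 95% intervals from the recovered reads that cover counting error only, and reads are not independent molecules.

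All 40 genes are accounted for, those averaging 5 or more over the mice by their values in every library and the others by reads, with their values or range where reads numbered at least 10, or by name only where no read was found. The genes, gene lists and markers were chosen with earlier results of these data known. Positions, exon lengths and upstream windows came from the mm9 (NCBIM37) genome and GENCODE M1, where all 40 symbols matched, with windows placed at the first start of a coding transcript, or of any transcript where none is coding; 1 of them, Tdrd5, is typed there as a long noncoding RNA.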

Additional observations from a re-analysis of the deposited data

How the results depend on the processing

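The count of germline genes called by limma was 0, and 2 with DESeq2 on recovered reads; leaving out a mouse or a WT library gave 0 to 2 called, 4 to 11 higher (6.38% to 14.9% of all tested genes) and 0 to 1 lower (4.25% to 13.2%) at an unadjusted p under 0.05, and a median log2 fold change of 0.98 to 1.36. The median, 0.94, was 1.29 with edgeR and 1.32 with DESeq2. Library numbers did not pair the libraries (correlations of deviations from -0.042 to -0.005), and with the replicate block, which leaves out mouse 4002 and takes 6 libraries of 3 mice as if they were separate samples, 6 genes were higher (12.8% of all), 1 (Rec8) lower (12.5%) and the median was 1.23. Genes at least 2-fold higher numbered 24 (22.7% of all genes), 11 with a pseudocount of 5 (8.89%) and 3 of 10 at a WT value of 5 to 50 (26.2%). They numbered 19 to 24 when a mouse or WT library was left out (20.1% to 24.3%). Genes at least 2-fold lower numbered 2 (8.8% of all genes). They numbered 0 with a pseudocount of 0.5 (7.15%) or of 5 (5%), a mean of at least 1 (7.37%), at least 10 reads (7.41%) or a WT value of 5 to 50 (12.1%). With mouse 4002 alone the lower genes numbered 4 (11.3%), and 0 to 5 when a mouse or WT library was left out (8.54% to 9.98%). The comparisons at 10 reads, at a WT value of 5 to 50 and with mouse 4002 alone were chosen after seeing the data. The second germline list had 5 calls with DESeq2 and 0 to 5 without 1 mouse, and the silencing list 1 with DESeq2 and 0 to 1 without 1 mouse, beside 6.42% of all genes called with DESeq2, 6% without mouse 4001, 4.14% without mouse 4002 and 0% without mouse 4007. Leaving out a mouse or WT library turned the sign of 4 log2 fold changes: Tdrd5 ran from -0.62 to 0.13, Mov10l1 from -1.29 to 2.2 and Sycp3 from -0.18 to 0.01, each turning without mouse 4001 (Mov10l1, at -0.1, also without WT library 2), and Sycp2 from -0.91 to 0.17, turning without WT library 1. Of 322 values of single genes under the alternatives, 312 kept their direction and their side of the threshold, and 5 (Piwil1 and Tdrd9) passed it. Why these values moved was not tested. The WT mouse could not be left out. Of the 40 genes 28 had fewer than 100 reads over all libraries, so counting error is wide for them, and 1 WT mouse leaves the spread among WT mice unknown.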

Other observations

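Some genes shared by sperm tails and ciliated epithelia were read as markers of ciliated cells and of the epididymis and oviduct. Foxj1, the transcription factor of motile cilia, had 1.15 and 0.887 in mouse 4001, 11.2 in mouse 4002, 5.59 and 3.65 in mouse 4007, and 19.7 and 35.3 normalized counts in WT. Every LBR-null library was lower (log2 fold change -2.46, unadjusted p = 0.0488 and adjusted p = 0.264 by limma). The axonemal genes Dnah5 and Tekt1 were higher in every LBR-null library, at means of 48.5 and 20.9 against 19.4 and 5.25 in WT (adjusted p = 0.226 and 0.191 by limma), while Ccdc39 and Rsph1 overlapped between groups. Ovgp1, a glycoprotein of oviduct secretions, had 111 and 92.3 in mouse 4001, 141 in mouse 4002, 231 and 196 in mouse 4007, and 44.1 and 36.2 in WT (1.83 on the log2 scale, adjusted p = 0.126 by limma, 0.0149 by DESeq2). Defb42, a defensin of the epididymis, had 225 and 168, 285, 164 and 126, and 98.4 and 121 in the same order, higher in all 5 LBR-null libraries (0.86 on the log2 scale, adjusted p = 0.344 by limma). The epididymal genes Lcn5 and Lcn8 had at most 1 read in a library.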
